A study of Mus musculus with 8 samples.

Results

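The heat shock and chaperone genes described here are 10 genes taken by symbol from the deposited gene tables, out of 54232 features measured in nuclei of mouse forebrain. They are Hsp90aa1, Hsp90ab1, Hsp90b1, Hspa1a, Hspa1b, Hspa5, Hspa8, Hsph1, Dnajb1 and Hspd1, and each symbol matched 1 feature. They are picked by name, with no threshold on a measured value. Nuclei were isolated from frozen perilesional forebrain of male Swiss Webster mice, 10 weeks old, and each mouse had 1 of 4 surgeries: control, BCAS, TBI (traumatic brain injury) or BCAS+TBI, with 2 biological replicates, each 1 library, in every group. The labels give BCAS only as an abbreviation, which the title of the study ties to cerebral hypoperfusion, and give no interval between surgery and collection, so the levels below belong to an unstated time after injury. The design asks what each surgery does alone and whether hypoperfusion changes the outcome of the injury.

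Molecular chaperones bind unfolded or partly folded proteins and help them to reach or regain their folded state. In the cytosol the transcription factor HSF1 raises heat shock genes when unfolded proteins accumulate, as after heat, ischaemia or injury, and in the endoplasmic reticulum the unfolded protein response raises a separate set of chaperones. In injured brain, the inducible HSP70 genes have long been used as markers of stressed neurons, while the constitutive HSP70 and HSP90 genes are active in cells at rest.

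The members fall into 4 roles. Hsp90aa1 (inducible) and Hsp90ab1 (constitutive) encode the cytosolic HSP90 proteins, which complete the folding of kinases and steroid receptors. On GRCm38, Hsp90aa1 lies at chr12:110690605-110702728 on the minus strand and Hsp90ab1 at chr17:45567775-45573271 on the minus strand. Hspa1a (chr17:34969190-34972156, minus strand) and Hspa1b (chr17:34956436-34959238, minus strand) encode the inducible cytosolic HSP70, and each is a single exon with no intron. Hspa8 (chr9:40800984-40810087, plus strand) encodes the constitutive HSP70, Dnajb1 (chr8:83608193-83612653, plus strand) an HSP40 co-chaperone that stimulates the ATPase of HSP70, and Hsph1 (chr5:149614287-149636376, minus strand) an HSP110 protein that exchanges the nucleotide of HSP70. Hspa5 (chr2:34771970-34777547, plus strand; BiP) and Hsp90b1 (chr10:86690209-86705509, minus strand; GRP94) are the HSP70 and HSP90 of the endoplasmic reticulum, and Hspd1 (chr1:55077835-55088243, minus strand) is the mitochondrial HSP60. The gene spans run from 2803 bases in Hspa1b to 22090 bases in Hsph1.

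Some of these genes share sequence with others, which bears on how their counts can be read. In the longest coding transcript of Hspa8, 62.8% of all stretches of 100 bases also occur in other annotated genes, which are 7 predicted genes, and 79.3% do in its last 500 bases, where a 3′ library reads most, so the Hspa8 counts are uncertain. The same share was 47.5% in Hsp90aa1, 26.9% in Hspd1 and 48.6% and 49.9% in Hspa1a and Hspa1b, but 0% in the last 500 bases of each. Hsp90b1, Hspa1a and Hspd1 overlap genes on the opposite strand (1810014B01Rik, Gm20481 and Hspe1), and whether counting used strand is not given in the sources used here. On the same strand, Hsp90b1 overlaps Gm15344 and Gm25745, and Hspa8 overlaps Snord14c, Snord14d and Snord14e.

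Upstream sequence is shown to place each member beside the response elements of its own promoter. RefSeq windows on GRCm38.p6 were matched for 7 members (Hspa1a, Hspa1b, Hspa5, Hsp90b1, Hsph1, Dnajb1 and Hspd1), and the 250 bases before each start site were searched on both strands for the palindromic heat shock units GAANNTTC and TTCNNGAA, their 3-unit forms, in which either is extended by 1 more inverted unit at the same spacing so that both occur overlapping, and the endoplasmic reticulum stress element, CCAAT and CCACG with 9 bases of any kind between. Among 32851 windows of the same length, GAANNTTC occurred in 6.69%, TTCNNGAA in 7.17%, each 3-unit form in 0.466% and the stress element in 0.113%. The endoplasmic reticulum members are shown first, with the stress element in capitals; Hspa5 held 1 at -65 to -47 from its start site and Hsp90b1 held 2, at -212 to -194 and, on the other strand, at -107 to -89.
Hspa5 (chr2:34772020-34772049, plus strand): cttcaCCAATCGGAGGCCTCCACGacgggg
Hsp90b1 (chr10:86705510-86705694, minus strand): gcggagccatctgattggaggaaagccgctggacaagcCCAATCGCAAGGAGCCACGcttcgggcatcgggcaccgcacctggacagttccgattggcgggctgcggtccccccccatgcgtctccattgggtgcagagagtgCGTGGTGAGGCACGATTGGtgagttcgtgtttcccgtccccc

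The heat shock units are in capitals in the next set, at -144 to -127 from 1 of the 2 annotated start sites of Hspd1, where the 3-unit forms overlap (the window of its other start site held none of the motifs), at -33 to -26 or -54 to -47 in Hsph1, from its 2 annotated start sites, and at -104 to -97 in Hspa1a and Hspa1b. The Hspa1a and Hspa1b windows are given whole because they were identical at 98.8% of 250 bases, differing at 3, so the inducible pair shares nearly all of its near promoter. The Dnajb1 windows held none of these letters.
Hspd1 (chr1:55088053-55088082, minus strand): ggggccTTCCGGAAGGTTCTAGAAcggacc
Hsph1 (chr5:149636351-149636380, minus strand): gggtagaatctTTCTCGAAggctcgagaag
Hspa1a (chr17:34972157-34972406, minus strand): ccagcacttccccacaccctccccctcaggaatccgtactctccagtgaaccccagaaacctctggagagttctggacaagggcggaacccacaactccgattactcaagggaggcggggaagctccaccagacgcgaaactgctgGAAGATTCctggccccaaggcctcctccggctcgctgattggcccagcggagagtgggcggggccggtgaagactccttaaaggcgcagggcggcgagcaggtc
Hspa1b (chr17:34959239-34959488, minus strand): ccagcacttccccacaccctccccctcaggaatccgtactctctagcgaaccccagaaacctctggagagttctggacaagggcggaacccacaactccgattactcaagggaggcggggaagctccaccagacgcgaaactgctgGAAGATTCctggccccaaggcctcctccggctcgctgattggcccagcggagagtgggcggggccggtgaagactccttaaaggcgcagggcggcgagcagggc

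The libraries held 6191 to 7882 barcodes each, where the labels state a target of about 3000 captured droplets, and 45560 nuclei passed the filters. Their total UMIs (unique molecular identifiers, 1 per captured RNA molecule) fell into 2 sets across the largest gap, each with 1 library of every group: 28118725 to 33363564 in control 1, BCAS 1, TBI 1 and BCAS+TBI 2 (lower set), and 42651388 to 56135192 in control 2, BCAS 2, TBI 2 and BCAS+TBI 1 (higher set). The sets differed in other respects too. In kept nuclei, ribosomal protein genes took 0.608% ± 0.105 (SD, n = 4) of UMIs in the lower and 0.256% ± 0.0224 (SD, n = 4) in the higher set, mitochondrially encoded genes 1.02% ± 0.269 and 0.505% ± 0.0954, and the nuclear RNA Malat1 70527 ± 6327 and 30445 ± 2141 CPM (UMIs of a gene per 1000000 UMIs). Immediate early genes, which rise fast with activity or handling, summed to 153 to 186 CPM in the lower and 86.7 to 157 CPM in the higher set. Between 5 and 20 barcodes were shared by any 2 libraries. Every chaperone difference between the sets below moved with these measures, and their part in it was not tested.

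All 10 members together made up 746 to 946 CPM of a library in the lower set and 418 to 475 CPM in the higher set, so the 4 libraries with fewer UMIs in all gave the larger share to chaperones. In UMIs the sums were close, 18204 to 23616 against 15841 to 21963. CPM here is a member's UMIs over all UMIs of the kept nuclei of a library, and in these sums over all nuclei a higher level cannot be told apart from a change in the mix of cells.

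Both cytosolic HSP90 genes differed between the library sets. Hsp90ab1 measured 191, 186, 172 and 242 CPM in control 1, BCAS 1, TBI 1 and BCAS+TBI 2, and 80.6, 85.8, 91.2 and 75.0 CPM in control 2, BCAS 2, TBI 2 and BCAS+TBI 1. Every library of the lower set stood above every library of the higher set, and BCAS+TBI held both the highest and the lowest value of the 8. Hsp90aa1 measured 123, 129, 113 and 152 CPM in the lower set, in the same order of groups, and 66.8, 73.1, 73.4 and 60.5 CPM in the higher set. Again the sets did not overlap, and the extremes were the BCAS+TBI libraries.

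The HSP70 system covered a wide range of levels. Hspa8, the constitutive member, measured 57.7, 64.5, 59.3 and 80.8 CPM in control 1, BCAS 1, TBI 1 and BCAS+TBI 2 against 32.4, 30.2, 32.7 and 26.4 CPM in control 2, BCAS 2, TBI 2 and BCAS+TBI 1. Its co-chaperone Dnajb1 measured 6.27, 8.32, 6.83 and 7.33 CPM against 4.70, 3.01, 4.47 and 4.09 CPM, with no overlap between the sets. Hsph1 stood apart from the other members, with 42.7, 45.7, 40.0 and 48.8 CPM in the lower set and 47.5, 44.3, 44.5 and 43.4 CPM in the higher set, so its sets overlapped and their means, 44.3 and 44.9 CPM, were within 1 SD of each other.

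The inducible HSP70 genes were close to the limit of detection. Hspa1a had 107 UMIs and Hspa1b 206 UMIs over all 8 libraries, against 12095 for Hspa8. Hspa1a measured 0.451, 0.501, 0.369 and 1.40 CPM in the lower set and 0.253, 0.202, 0.242 and 0.158 CPM in the higher set, from 6 to 35 UMIs a library. Its single high value, 35 UMIs in BCAS+TBI 2, was the highest of the 8, while BCAS+TBI 1 was the lowest. Hspa1b measured 1.03, 1.27, 1.07 and 1.52 CPM in the lower and 0.737, 0.364, 0.507 and 0.211 CPM in the higher set, again with no overlap.

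The organelle chaperones followed the cytosolic ones. Hsp90b1, the member with most UMIs, measured 184, 234, 196 and 227 CPM in the lower set and 134, 117, 117 and 114 CPM in the higher set. Hspa5 measured 109, 156, 139 and 151 CPM against 87.6, 70.0, 77.2 and 74.1 CPM, and here control 1 lay nearest to the higher set. Mitochondrial Hspd1 measured 31.6, 30.1, 30.6 and 33.2 CPM against 21.0, 20.1, 21.4 and 20.6 CPM, and the gap between the sets was wider than the spread within either. For 9 of 10 members all 4 lower-set libraries lay above all 4 higher-set libraries, an arrangement that 40.3% of all 23975 genes tested also showed.

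**Figure D1:**
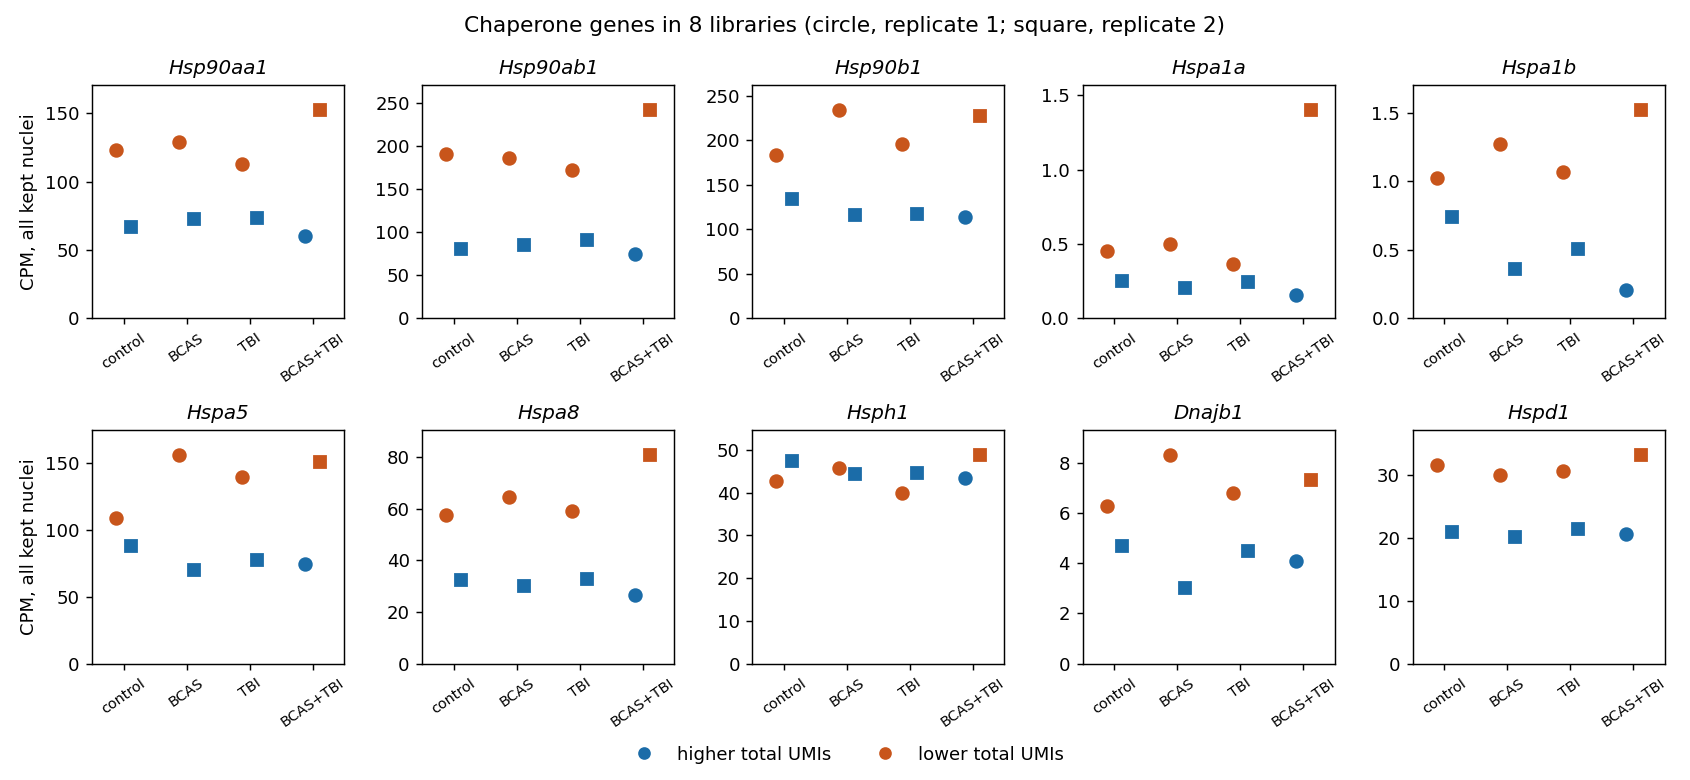
CPM of each member over all kept nuclei (vertical axis, from 0) in the 4 surgery groups (horizontal axis), 1 point per library, coloured by the library's total UMIs. In every panel except that of Hsph1 the 4 lower-total libraries lie above the 4 higher-total libraries, whatever the group.

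Tested in edgeR's quasi-likelihood model with terms for the 4 groups and the library set, all 10 members passed an adjusted p of 0.05 between the sets, 9 higher in the lower set and Hsph1 lower. Of all genes tested 58.0% passed, 31.1% higher and 26.9% lower, so passing sets no member apart. The fitted log2 difference, lower over higher set, was 1.04 ± 0.12 (SE; adjusted p = 0.000326) for Hsp90ab1 and 0.90 ± 0.13 (SE; adjusted p = 0.000854) for Hspa8. It was 0.72 ± 0.11 for Hsp90aa1 (SE; adjusted p = 0.00128), 0.64 ± 0.12 for Hspa5 (SE; adjusted p = 0.00300) and 0.60 ± 0.09 for Hsp90b1 (SE; adjusted p = 0.00110). Dnajb1 and Hspd1 differed by 0.63 ± 0.17 and 0.40 ± 0.07 (SE; adjusted p = 0.0158 and 0.00197). The largest fitted values, 1.31 ± 0.45 for Hspa1a and 1.25 ± 0.37 for Hspa1b (SE; adjusted p = 0.0362 and 0.020), rest on the fewest UMIs. Hsph1 was 0.22 ± 0.08 lower on the log2 scale (SE; adjusted p = 0.0388).

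The median over the 10 members was 0.68, beside 0.05 over all genes on the same scale. On the scale of CPM, with no TMM factors, the median of all genes was itself 0.24 higher in the lower set, so the fitted values are read relative to TMM. The calls for Hsph1 and Hspa1a were the weakest. That for Hsph1 was lost without control 1 or 2, BCAS 1 or 2, or TBI 1 or 2. It was also lost with the replicate number as a block and with a minimum count of 30. That for Hspa1a was lost without control 1 or 2, BCAS 1 or 2, or BCAS+TBI 1 or 2. It was also lost with DESeq2 and with at least 1000 UMIs. Leaving out each library in turn gave Hsph1 -0.30 to -0.16 and Hspa1a 0.70 to 1.60. The sign of Hsph1 stayed negative and that of Hspa1a positive in all of these. Without BCAS 1 or without BCAS 2 the number of members called fell from 10 to 6, with Hspa1a, Hspa1b, Dnajb1 and Hsph1 no longer called, and it was 7 without either BCAS+TBI library.

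Nuclei were then given a cell class from marker genes, none of them a member, which placed 27739 of 45560 nuclei. Each class name below is marker-based only, and the Slc17a6 neuron-like class holds thalamic and other neurons with that transporter. A class was tested where each library held 20 or more of its nuclei, which left 11, from 309 mural-like to 10664 excitatory neuron-like nuclei, each with 2 to 7 of its own markers among its 10 leading genes. In these, 72 member-class pairs passed the filter on low counts: 11 each for Hsp90ab1 and Hsp90b1, 10 each for Hsp90aa1 and Hspa5, 9 for Hspa8, 8 each for Hsph1 and Hspd1, 4 for Dnajb1 and 1 for Hspa1b, and none for Hspa1a. Between the library sets, 47 pairs were higher and 1 lower in the lower set, 48 in all, where 34.6% of all 104883 gene-class pairs passed, 19.1% higher and 15.5% lower. DESeq2 called 30 of the 72 pairs, all higher, and 19.3% of all gene-class pairs.

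The set difference of the cytosolic HSP90 genes was seen in neuron-like and in glia-like classes. All classes come from the same 8 libraries and share any RNA free in each. Counts of classes, here and below, are therefore not independent evidence. Excitatory neuron-like nuclei gave Hsp90ab1 levels of 182, 165, 131 and 244 CPM in control 1, BCAS 1, TBI 1 and BCAS+TBI 2, against 65.9, 71.1, 76.7 and 65.7 CPM in control 2, BCAS 2, TBI 2 and BCAS+TBI 1. That is a log2 difference of 1.17 ± 0.13 (SE; adjusted p = 2.31e-05), and no library of one set reached the other. Hsp90ab1 was called in 10 of 11 classes, from 0.56 ± 0.17 in endothelial-like to 1.31 ± 0.21 in striatal projection neuron-like nuclei (SE). The exception was the mural-like class, at 1.15 ± 0.43 (SE; adjusted p = 0.0703) from 103 UMIs over 8 libraries. Hsp90aa1 was called in 7 of 10 classes, with 0.86 ± 0.11 in excitatory neuron-like, 0.89 ± 0.11 in Slc17a6 neuron-like and 0.48 ± 0.13 in oligodendrocyte-like nuclei (SE).

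Hspa8 was called in 8 of 9 classes. Its fitted log2 difference was 1.14 ± 0.15 in excitatory neuron-like and 1.24 ± 0.25 in oligodendrocyte precursor-like nuclei (SE), and 0.32 ± 0.20 (SE; adjusted p = 0.226) in endothelial-like nuclei, where its level was highest. Dnajb1 was called in excitatory and inhibitory neuron-like nuclei, at 0.64 ± 0.19 and 0.84 ± 0.32 (SE), 2 of its 4 classes. Hspa1b was tested in excitatory neuron-like nuclei only, from 67 UMIs, at 1.34 ± 0.44 (SE; adjusted p = 0.0298). Hsph1 was called in 1 of 8 classes, Slc17a6 neuron-like nuclei, where it was lower by 0.31 ± 0.10 on the log2 scale (SE; adjusted p = 0.0296), and its fitted value was positive in 2 classes.

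In the endoplasmic reticulum pair, Hspa5 was called in 8 of 10 and Hsp90b1 in 8 of 11 classes. The largest difference of each was in oligodendrocyte precursor-like nuclei, 0.84 ± 0.17 for Hspa5 and 0.93 ± 0.15 for Hsp90b1 (SE). In microglia-like nuclei neither passed, at 0.30 ± 0.25 and 0.37 ± 0.21 (SE; adjusted p = 0.395 and 0.182). Hspd1 was called in 3 of 8 classes, the excitatory, inhibitory and striatal projection neuron-like nuclei. Differences between classes in the size of the set effect were not tested.

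**Figure D2:**
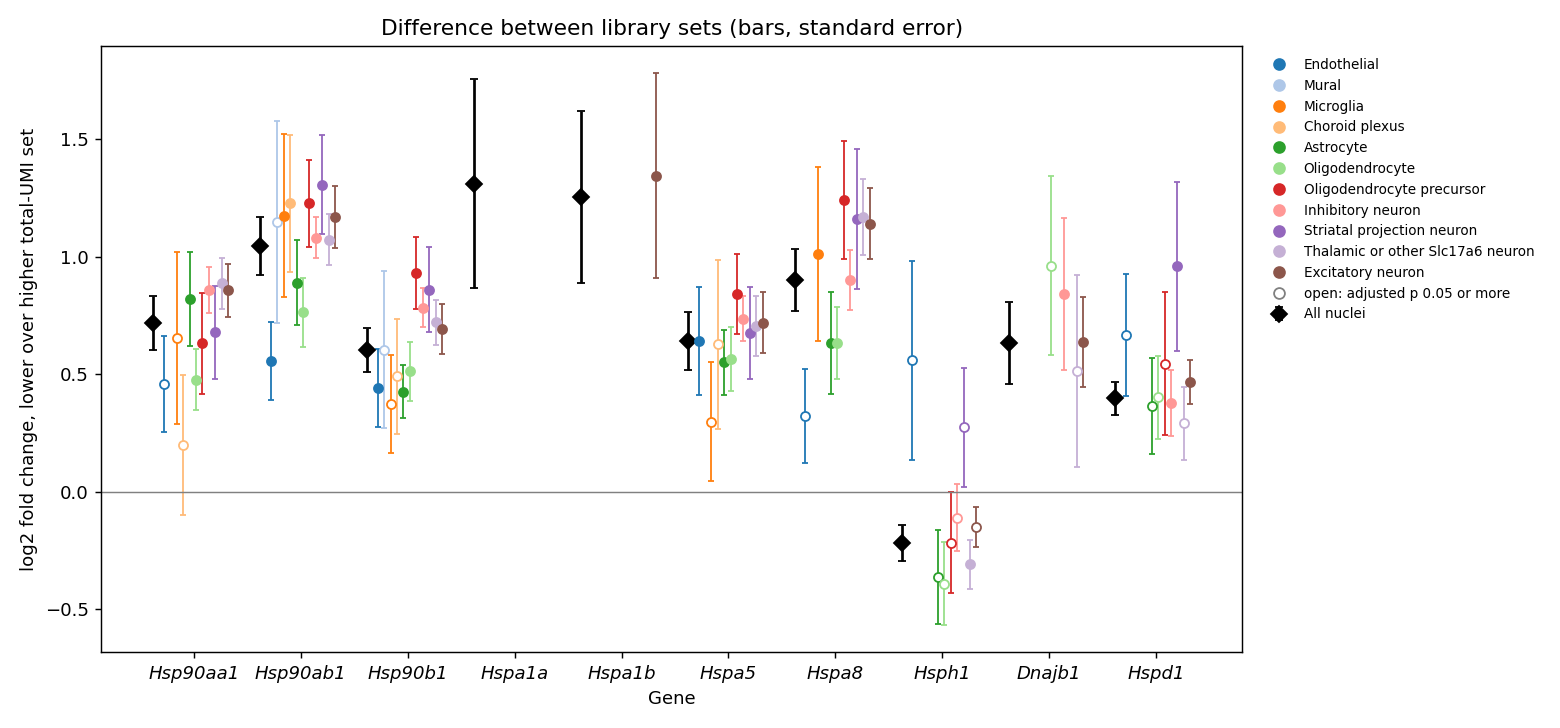
Fitted log2 fold change of the lower over the higher total-UMI set (vertical axis) for each member (horizontal axis), with black diamonds for all nuclei and circles for cell classes, filled where the adjusted p is under 0.05; bars are standard errors. Circles of Hsp90ab1 lie between 0.56 and 1.31, while those of Hsph1 lie on both sides of 0.

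Beside the set effect, the levels differed between cell classes. Comparisons between classes used the difference in log2(CPM + 10) within each library and an exact two-sided sign-flip permutation test over 8 libraries, whose smallest possible p is 0.0078125. Of 100 comparisons between neighbours in the order of class means, 0 passed after Benjamini-Hochberg adjustment and 9 had an unadjusted p under 0.05. Among 100 comparisons, even the smallest possible p passes only where many comparisons share it. The 0 therefore does not show that neighbours are alike. All 55 pairs of classes were then compared for each member, a comparison added after the data were seen with its own adjustment, and the counts of classes below come from it. It calls some of the same neighbours, such as Hspa8 in endothelial-like over mural-like nuclei (7 of 8 libraries, exact sign-flip permutation p = 0.015625, adjusted p = 0.0470 over all pairs and 0.3125 over neighbours), so these calls depend on the family chosen. Orders are among the 11 tested classes. Ependymal-like (98 nuclei) and fibroblast-like (228 nuclei) classes had too few nuclei to be tested. Only the members were compared between classes, so the share of all genes highest or called in the same classes is not known. The median UMIs per nucleus were 910 in mural-like, 1150 in endothelial-like and 1229 in microglia-like against 6975 in excitatory neuron-like nuclei, and the part of this depth in the order was not tested.

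Among the 11 tested classes, endothelial-like or mural-like nuclei had the highest mean of every member except Hsph1, though for Hspa1a and Hspa1b this rests on 1 and 2 UMIs. In the untested ependymal-like class the means were higher still for Hsp90aa1 and Hspa5, 240 ± 214 CPM from 65 UMIs and 234 ± 117 CPM from 64 UMIs, and in fibroblast-like nuclei for Hspa1b, 6.18 ± 11.9 CPM from 2 UMIs (SD, n = 8). Hspa8 measured 221 ± 45.7 CPM (SD, n = 8) in endothelial-like nuclei, called above all 10 other classes over all pairs, with 122 ± 92.3 CPM in mural-like, 75.5 ± 41.8 CPM in microglia-like and 63.0 ± 23.0 CPM in astrocyte-like nuclei. Choroid plexus-like, oligodendrocyte-like, inhibitory neuron-like and oligodendrocyte precursor-like nuclei followed at 56.2, 55.9, 52.2 and 50.4 CPM, then Slc17a6 neuron-like at 46.6, excitatory neuron-like at 39.0 and striatal projection neuron-like nuclei at 32.5 CPM. The endothelial-like level exceeded that of excitatory neuron-like nuclei by 2.32 ± 0.49 on the log2(CPM + 10) scale (SD), in 8 of 8 libraries (exact sign-flip permutation p = 0.0078125, adjusted p = 0.0314).

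Hsp90ab1 had the same leading classes, 463 ± 102 CPM in endothelial-like and 332 ± 204 CPM in mural-like nuclei (SD, n = 8), which differed by less than the adjusted threshold (exact sign-flip permutation p = 0.0390625, adjusted p = 0.0990). Oligodendrocyte-like nuclei came next at 191 ± 66.7 CPM, and the other 8 classes lay between 122 CPM in Slc17a6 neuron-like and 169 CPM in microglia-like nuclei. Endothelial-like nuclei were above 9 of the 10 other classes. Hsp90aa1 spanned a narrower range, from 187 ± 76.9 CPM in mural-like, 161 ± 41.0 CPM in endothelial-like and 144 ± 35.8 CPM in oligodendrocyte-like to 86.7 ± 36.5 CPM in excitatory neuron-like nuclei (SD, n = 8). Between these ends stood choroid plexus-like (125 CPM), microglia-like (111), inhibitory neuron-like (110), Slc17a6 neuron-like (104), oligodendrocyte precursor-like (104), astrocyte-like (99.9) and striatal projection neuron-like (89.1) nuclei.

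The endoplasmic reticulum members were also high in microglia. Hsp90b1 measured 335 ± 56.9 CPM in endothelial-like, 334 ± 75.7 CPM in microglia-like and 300 ± 64.0 CPM in mural-like nuclei, then 232 in inhibitory neuron-like, 217 in oligodendrocyte precursor-like, 191 in astrocyte-like, 182 in choroid plexus-like, 179 in oligodendrocyte-like, 158 in striatal projection neuron-like, 141 in Slc17a6 neuron-like and 133 ± 47.2 CPM in excitatory neuron-like nuclei (SD, n = 8). Over all pairs, excitatory neuron-like nuclei were called below 9 of 10 other classes, of which the nearest, Slc17a6 neuron-like, did not pass among neighbours (exact sign-flip permutation adjusted p = 0.3125). Hspa5 measured 203 ± 103 CPM in mural-like, 201 ± 51.3 CPM in microglia-like and 185 ± 62.1 CPM in endothelial-like nuclei and 85.9 ± 32.9 CPM in excitatory neuron-like nuclei (SD, n = 8), with the other 7 classes from 87.9 to 138 CPM. Microglia-like nuclei exceeded excitatory neuron-like nuclei in 8 of 8 libraries for both genes (exact sign-flip permutation p = 0.0078125, adjusted p = 0.0314).

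Hsph1 had a different order from the other members. Among the tested classes it was highest in Slc17a6 neuron-like nuclei, 61.6 ± 5.80 CPM, with 53.5 ± 7.02 CPM in oligodendrocyte precursor-like and 45.5 ± 3.62 CPM in excitatory neuron-like nuclei, and lowest in endothelial-like nuclei, 28.2 ± 14.2 CPM (SD, n = 8). The untested ependymal-like class had 151 ± 139 CPM (SD, n = 8) from 46 UMIs. The Slc17a6 neuron-like level was above that of 7 of the 10 other classes, among them excitatory neuron-like nuclei by 0.37 ± 0.11 on the log2(CPM + 10) scale (SD; 8 of 8 libraries, exact sign-flip permutation p = 0.0078125, adjusted p = 0.0314).

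Dnajb1 and Hspd1 were low in most classes. Dnajb1 measured 17.4 ± 6.94 CPM in endothelial-like nuclei, above 7 of 10 other classes, 13.9 ± 18.1 CPM in mural-like nuclei from 5 UMIs in all, 12.3 ± 10.8 CPM in choroid plexus-like nuclei and 3.74 to 6.72 CPM in the other 8. Hspd1 measured 60.8 ± 41.5 CPM in mural-like, 50.5 ± 14.0 CPM in endothelial-like and 22.1 ± 5.69 CPM in excitatory neuron-like nuclei (SD, n = 8), with the other 8 classes from 24.5 to 34.0 CPM. The endothelial-like level of Hspd1 was above 7 of 10 other classes.

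Inducible HSP70 RNA was scarce in every class. Of the UMIs in the 11 tested classes, excitatory neuron-like nuclei held 20 of 41 for Hspa1a, 0.330 ± 0.432 CPM, and 67 of 108 for Hspa1b, 0.954 ± 0.596 CPM (SD, n = 8). This was also the largest class, with 10664 nuclei, and the one with the highest median UMIs per nucleus, 6975. No Hspa1a UMI was seen in choroid plexus-like, oligodendrocyte precursor-like or striatal projection neuron-like nuclei. The apparently high mural-like means, 4.71 and 5.54 CPM, came from 1 and 2 UMIs.

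**Figure D3:**
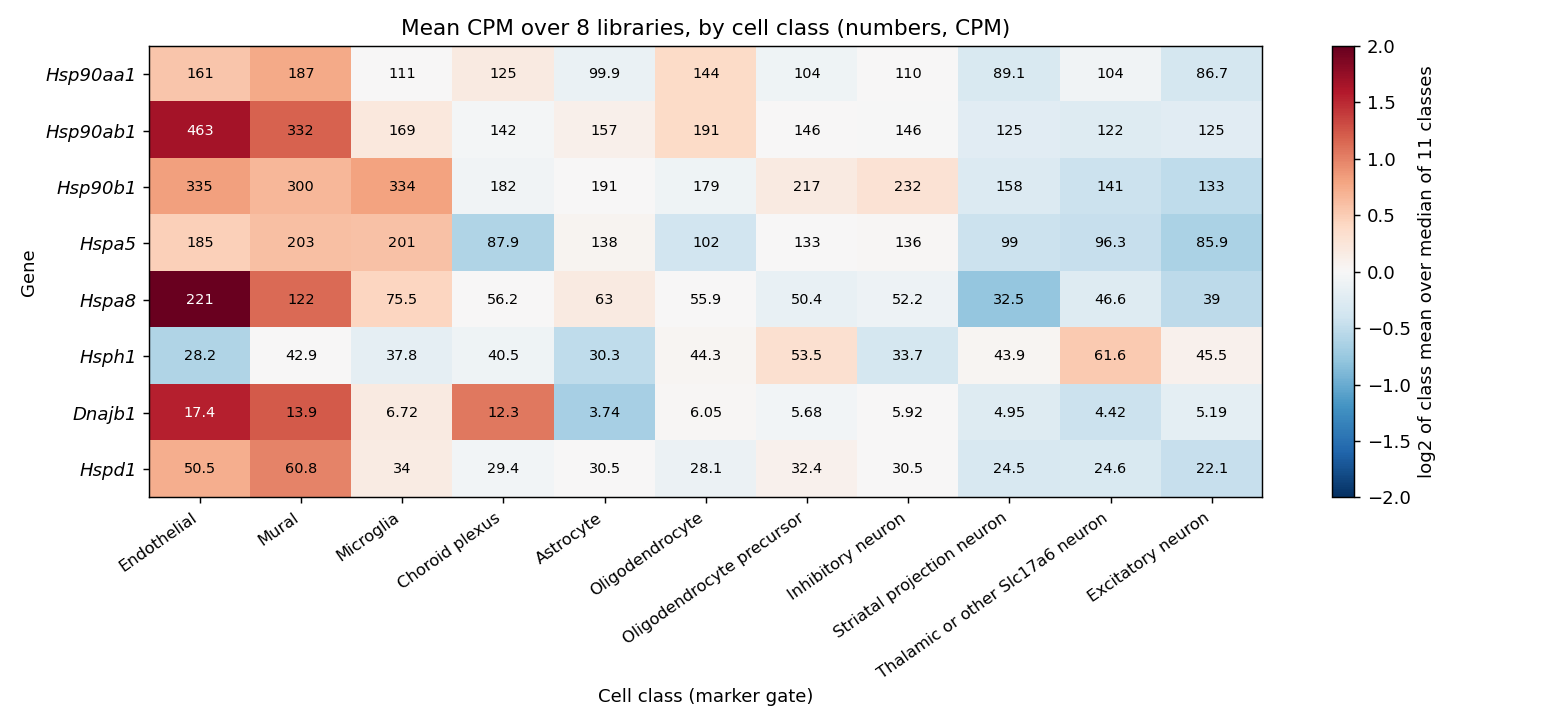
Mean CPM over 8 libraries (numbers) of 8 members (rows) in 11 marker-gated cell classes (columns), coloured by the log2 ratio of a class mean to the median of the 11 classes. Endothelial and mural columns are red for Hsp90ab1 (463 and 332 CPM) and Hspa8 (221 and 122 CPM), while Hsph1 is lowest in the endothelial column (28.2 CPM).

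No member was called between the surgeries. Group means over all nuclei were close: for Hsp90aa1 the control mean was 94.9 ± 39.7 CPM, the BCAS mean 101 ± 39.8, the TBI mean 93.2 ± 28.05 and the BCAS+TBI mean 106 ± 65.0 (SD, n = 2), and Hspa8 measured 45.0 ± 17.9, 47.4 ± 24.2, 46.0 ± 18.8 and 53.6 ± 38.5 CPM in the same order. For both genes the 2 libraries of every group lay further apart than the highest and lowest group means. In the model with groups only, edgeR called 0 of 80 tests of the members in all nuclei and 0 of 576 in cell classes over 8 contrasts, where it also called 0% of all genes in each contrast. At an unadjusted p under 0.05 there were 0 and 3 such tests, and DESeq2 called 0 in each table. Per contrast, 0 to 2 of 72 member-class pairs were under 0.05, beside 755 to 1034 of all 104883 gene-class pairs.

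Averaged over BCAS, the TBI effect in all nuclei on the log2 scale was 0.02 ± 0.31 for Hsp90aa1, 0.09 ± 0.42 for Hsp90ab1, -0.03 ± 0.27 for Hsp90b1 and 0.06 ± 0.29 for Hspa5 (SE). It was 0.10 ± 0.37 for Hspa8, 0.04 ± 0.32 for Dnajb1, -0.03 ± 0.15 for Hsph1, 0.04 ± 0.19 for Hspd1, 0.47 ± 0.67 for Hspa1a and -0.06 ± 0.63 for Hspa1b (SE), with an adjusted p of 0.999994 for all 10. The BCAS effect averaged over TBI was 0.14 ± 0.31 for Hsp90aa1, 0.14 ± 0.42 for Hsp90ab1, 0.13 ± 0.27 for Hsp90b1, 0.12 ± 0.29 for Hspa5 and 0.14 ± 0.37 for Hspa8 (SE). For the other members it was 0.02 ± 0.32 (Dnajb1), 0.06 ± 0.15 (Hsph1), -0.00 ± 0.19 (Hspd1), 0.63 ± 0.67 (Hspa1a) and -0.03 ± 0.63 (Hspa1b) (SE), each with an adjusted p of 0.999989. The interaction, which asks whether BCAS changes the TBI effect, ranged from -0.11 ± 0.58 for Hspa5 to 1.31 ± 1.34 for Hspa1a (SE; adjusted p = 0.999942 for each).

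With the library set as a block the standard errors fell, and the members still passed in no contrast. The SE of the averaged TBI effect was 0.11 for Hsp90aa1, 0.12 for Hsp90ab1 and Hspa5, 0.09 for Hsp90b1, 0.13 for Hspa8, 0.08 for Hsph1 and 0.07 for Hspd1, with effects from -0.04 for Hsp90b1 to 0.07 for Hsp90ab1 among these 7. In this model 0 of 80 tests in all nuclei and 0 of 576 in classes were called, with 0 and 15 at an unadjusted p under 0.05, and DESeq2 with the same block called 0 in each. Per contrast, 0 to 4 of 72 member-class pairs were under 0.05, beside 3996 to 5524 of all 104883 gene-class pairs. Among all gene-class pairs the blocked model called 0.0133% (TBI), 0.00953% (BCAS) and 0.00763% (BCAS+TBI) in comparison with control, 0.000953% when BCAS+TBI was set against TBI and 0.00667% when it was set against BCAS, 0.00381% for the interaction, 0.00858% for TBI averaged and 0.00572% for BCAS averaged. In all nuclei it called 0.00417% of genes for BCAS against control and 0% in the other 7 contrasts.

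**Figure D4:**
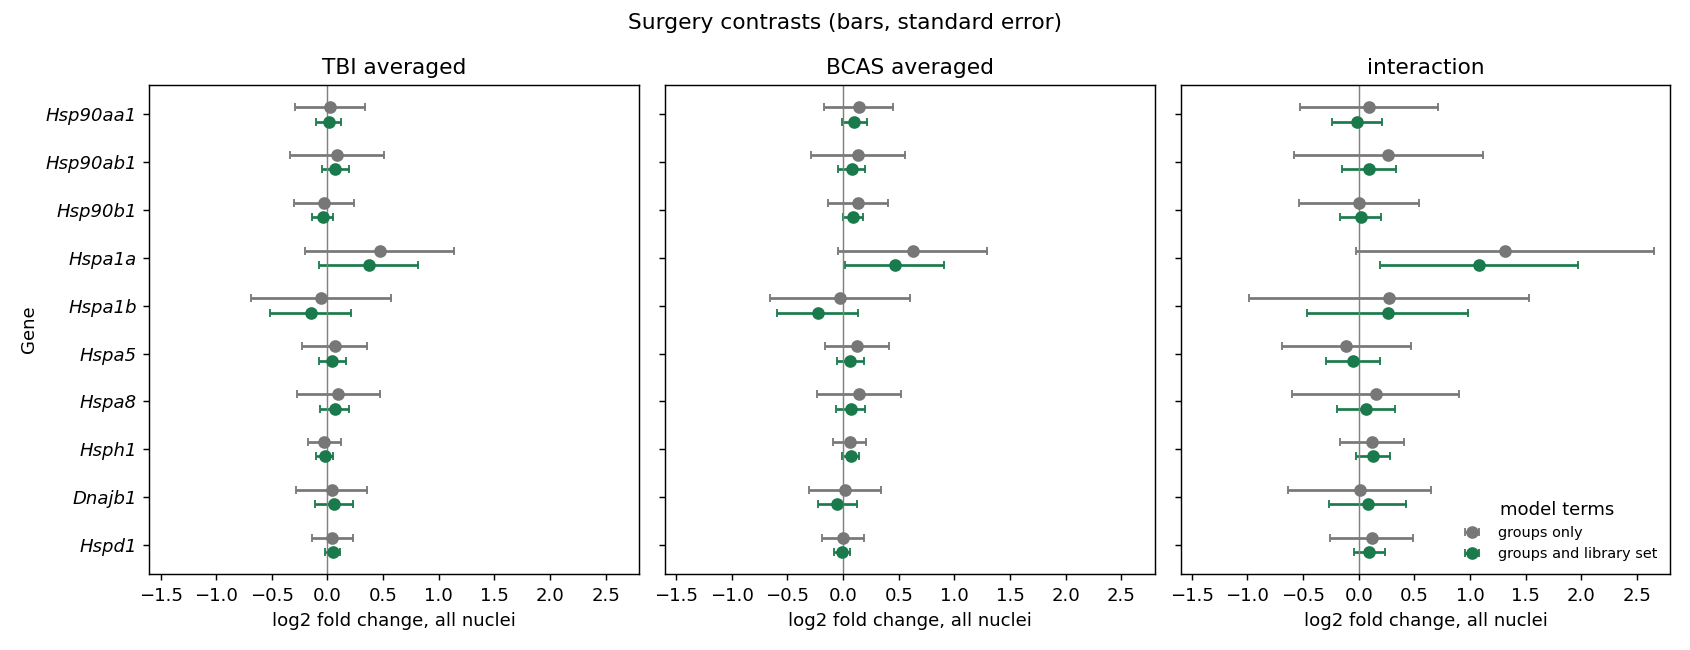
Fitted log2 fold change in all nuclei (horizontal axis) of each member (vertical axis) for TBI averaged over BCAS, BCAS averaged over TBI and their interaction, in the model with groups only (grey) and with the library set added (green); bars are standard errors. No member was called, and the bars of Hsp90aa1 for TBI averaged shrink from 0.31 to 0.11 with the set in the model.

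Several surgery differences had opposite signs in the 2 library sets. In log2 CPM, BCAS+TBI minus TBI was -0.28 for Hsp90aa1, -0.28 for Hsp90ab1 and -0.31 for Hspa8 in the higher set, and 0.43, 0.49 and 0.45 in the lower set. All 10 members were negative in the higher and positive in the lower set for this difference, and likewise for BCAS+TBI minus control, which uses the same 2 BCAS+TBI libraries. Of all 23975 genes, 23.7% and 27.4% showed that arrangement for the respective differences. TBI minus control was 0.14 for Hsp90aa1 in the higher and -0.12 in the lower set, and 7 of 10 members had opposite signs in the sets, as did 57.3% of all genes. Each such value sets 1 library against 1, so it has no test.

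Pairs in cell classes are ranked here by p in the model with groups only, and their order with the library set added is not given. In that model, the pairs with the smallest p for TBI averaged were Hsp90ab1 in mural-like nuclei, 1.02 ± 0.55, Hspd1 in astrocyte-like nuclei, 0.42 ± 0.25, and Hsp90aa1 in choroid plexus-like nuclei, -0.46 ± 0.31 (SE; adjusted p = 0.999987 for each). For BCAS averaged they were Hsph1 in endothelial-like nuclei, -1.08 ± 0.52, Hspd1 in oligodendrocyte-like nuclei, -0.47 ± 0.24, and Hspa8 in microglia-like nuclei, 0.64 ± 0.49 (SE; adjusted p = 0.999996 for each). For the interaction they were Hsph1 and Hspd1 in astrocyte-like nuclei, -1.41 ± 0.49 and -0.90 ± 0.50, and Hspd1 in oligodendrocyte precursor-like nuclei, 1.006 ± 0.74 (SE; adjusted p = 0.999998 for each). None of these is a change by the test.

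The wider chaperone network was read from 6 lists, all of whose genes passed the filter in all nuclei. No gene of any list was called in any of the 8 group contrasts, with or without the set block. Between the library sets, 16 of 24 genes of the endoplasmic reticulum and unfolded protein list were higher in the lower set and 3 lower, with a median log2 difference of 0.49 beside 0.05 for all genes. Those with the smallest p among the higher genes were folding enzymes and secreted factors: Manf was higher by 1.18 ± 0.08, the lectin chaperone Calr by 1.03 ± 0.11, the disulfide isomerase Pdia6 by 1.08 ± 0.13 and the BiP partner Dnajb11 by 0.89 ± 0.12 (SE). The largest difference of the list was that of Sdf2l1, 1.55 ± 0.22 (SE; adjusted p = 0.000785), named after its value was seen. The sensors of that response went the other way, with Atf6 at -0.42 ± 0.05 and Ern1 at -0.49 ± 0.06 (SE).

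The TRiC chaperonin, which folds actin and tubulin, had 7 of 8 subunits higher and none lower, with Cct2 at 0.59 ± 0.09, Cct5 at 0.53 ± 0.09 and Cct6a at 0.51 ± 0.06 (SE), and a list median of 0.38. Of 8 mitochondrial genes, 5 were higher and 2 lower (median 0.29), led by Hspe1, the partner of Hspd1, at 1.23 ± 0.11 and the HSP70 exchange factor Grpel1 at 1.13 ± 0.10 (SE), while the chaperone Trap1 was at -0.28 ± 0.06 (SE). Hspe1 overlaps Hspd1 on the opposite strand.

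The other lists, mostly of cytosolic partners, were divided in all nuclei. In the HSF1 list, 6 of 15 were higher and 5 lower with a median of -0.01: the small heat shock protein Cryab was at 1.99 ± 0.19, the HSP90 ATPase activator Ahsa1 at 0.96 ± 0.14 and Dnaja1 at 0.29 ± 0.05, against Dnajb4 at -0.32 ± 0.06 and Chordc1 at -0.28 ± 0.05 (SE). Among 11 genes of the HSP90 co-chaperone list, 4 were higher and 3 lower with the same median. The higher ones included the p23 protein Ptges3 at 0.39 ± 0.06, the kinase adaptor Cdc37 at 0.43 ± 0.09 and Fkbp4 at 0.30 ± 0.08 (SE). The mitochondrial chaperone Trap1, at -0.28 ± 0.06 (SE), is among the lower ones. Among 24 HSP70 partners and J proteins, 9 were higher and 10 lower with a median of -0.03; Bag5, Bag1 and the ubiquitin ligase Stub1 were at 1.10 ± 0.11, 0.79 ± 0.09 and 0.59 ± 0.07, and Hspa12a and the synaptic J protein Dnajc5 at -0.51 ± 0.06 and -0.41 ± 0.05 (SE). The lists share genes: Trap1 is also in the mitochondrial list, and Dnajc3, at 0.48 ± 0.07 (SE), is in both the HSP70 and the endoplasmic reticulum list. Over all genes 31.1% were higher and 26.9% lower. In cell classes the called pairs of these 3 lists were more often higher. The HSF1 list had 26 of 93 pairs higher and 4 lower (median 0.12). The HSP90 co-chaperone list had 11 of 91 higher and 5 lower (0.14), and the HSP70 list 45 of 186 and 22 (0.05). Among all gene-class pairs 19.1% were higher and 15.5% lower. All these shares are descriptions of the lists, not tests of them.

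Gene length moved with the set difference across all genes. The median log2 difference was 0.53 in 6264 genes up to 5 kb, 0.44 in 2974 genes of 5 to 10 kb, 0.18 in 5204 genes of 10 to 25 kb, -0.14 in 6711 genes of 25 to 100 kb and -0.42 in 2799 genes over 100 kb, with length ranges chosen after the data were seen. Dnajb1, Hspa1a and Hspa1b fall in the first range, Hsp90ab1, Hspa5 and Hspa8 in the next, and Hsp90aa1, Hsp90b1, Hspd1 and Hsph1 in the third. Of the 10 members, 9 lay above the median of their range, and Hsph1, the longest member, lay below it. The part of gene length in the members' differences was not tested.

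**Figure D5:**
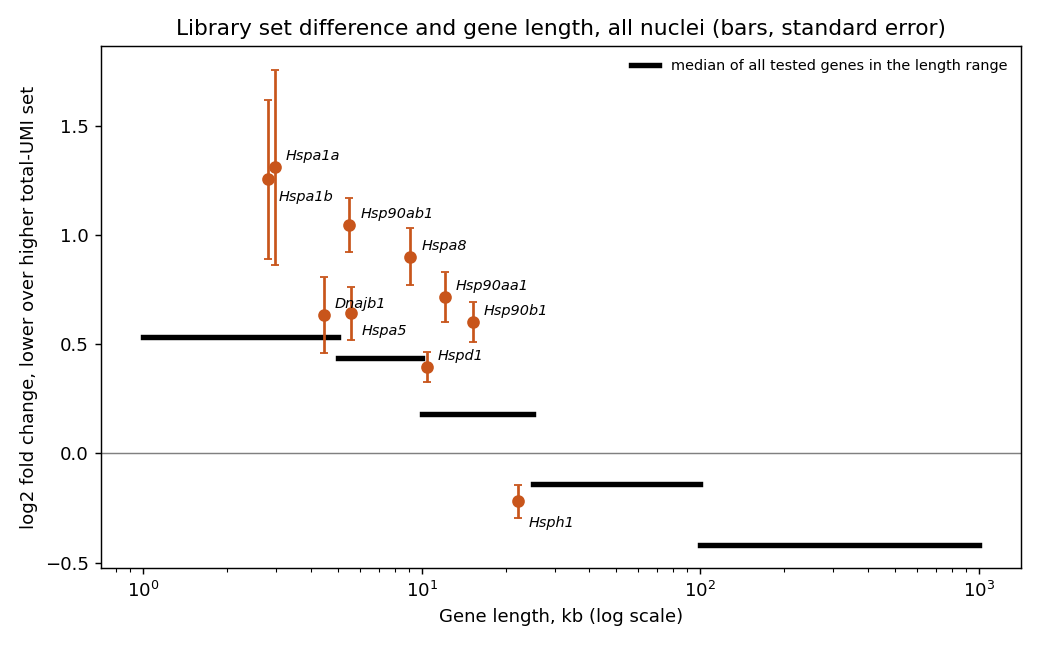
Fitted log2 fold change of the lower over the higher total-UMI set in all nuclei (vertical axis) against gene length (horizontal log axis, kb) for the 10 members (points, bars are standard errors), with black lines at the median of all tested genes in each length range; the outer ranges are drawn from 1 kb and to 1000 kb. All members but Hsph1 lie above the black line of their range, which falls from 0.53 to -0.42.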

How the data were processed

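Single-nucleus RNA was profiled by 10x Genomics 3′ chemistry in 8 libraries, 2 per group. The authors deposited UMI counts per gene and barcode, and the file headers name Cell Ranger 7.0.0; GRCm38 (mm10) and Seurat are named in the submitters' processing notes, and whether intronic reads were counted is not given in the sources used here. A barcode was kept if it had 500 UMIs or more from 300 genes or more and no more than 5% of them mitochondrial, and the 6% of each library with the highest Scrublet scores (scanpy 1.11.5) were removed as doublets, since the automatic threshold marked at most 0.0525% in 7 libraries. A nucleus was given the class with the largest share of its markers detected, at least 30% and 15 percentage points ahead of the next, and no class tested had a marker of another class among its 10 leading genes. Counts were summed per library and class and tested with edgeR 4.0.16 (TMM, minimum count of 10, quasi-likelihood, Benjamini-Hochberg over all gene-class pairs, threshold 0.05), first with the groups alone and then with the library set added; DESeq2 1.42.0 was an alternative. The members and lists were chosen with earlier results of these data known. Class pairs named for the group contrasts are the 3 with the smallest p in each, in the model with groups only. The labels call the 2 samples of a group biological replicates. The tests were tried on simulated counts before use. In all nuclei they recovered 33.7% of 1.5-fold changes between library sets and 42.9% for TBI averaged. For 2-fold changes the shares were 85.7% and 87.8%. The simulated TBI changes came without a library set difference, so their shares do not carry over to the group contrasts here.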

Additional observations from a re-analysis of the deposited data

Results flagged for a closer look

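Hspa1a measured 1.40 CPM in BCAS+TBI 2, from 35 UMIs, and lay far from the other 3 libraries of the lower total-UMI set, at 0.369 to 0.501 CPM from 10 to 13 UMIs each. Its gap to the nearest of them, divided by the range of the 4, exceeded Dixon's 95% critical value. Of 20 sets tested, 10 members in 2 library sets, 1 was singled out in this way, and chance does so in about 1 of 20. BCAS+TBI 2 also had the highest mitochondrial share of kept nuclei, 1.39%, and its part in the Hspa1a value was not tested.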

How the results depend on the processing

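In all nuclei the set difference of each member kept its direction under every alternative run. Its signs in cell classes were not compared between runs. No run left out the scaling factors, and in CPM the Hsph1 means were 44.3 in the lower and 44.9 in the higher set, with overlap. The count of members called between the sets in all nuclei was 10, and it was lower whenever a library was left out. In cell classes it was 48 of 72 pairs, and 30 with DESeq2, where 19.3% of all pairs passed. With a library left out fewer member-class pairs were called, though more passed the filter on low counts. The shares of all genes and of all gene-class pairs called were lower in each of these runs too. The class with the highest mean was the same for 7 of 10 members under the stricter gate, 8 without BCAS 1 or without TBI 1, 9 without control 1, BCAS 2 or BCAS+TBI 1 and 10 under the other settings. In all group contrasts 0 members were called under every alternative run. Their log2 effects in the model with groups only, none past the threshold, changed sign between runs. Leaving out a library left its group with 1 library of 1 set, so surgery and library set cannot be told apart there. How many of all genes changed sign in these runs was not counted. For TBI averaged over BCAS, leaving out each library in turn gave Hsp90aa1 -0.32 to 0.28, Hsp90ab1 -0.39 to 0.40, Hsp90b1 -0.27 to 0.19, Hspa1a -0.58 to 0.92, Hspa1b -0.98 to 0.43, Hspa5 -0.18 to 0.33, Hspa8 -0.35 to 0.40, Hsph1 -0.12 to 0.0835, Dnajb1 -0.19 to 0.41 and Hspd1 -0.0944 to 0.19, so 10 of 10 members changed sign. For BCAS averaged over TBI, leaving out each library in turn gave Hsp90aa1 -0.21 to 0.36, Hsp90ab1 -0.34 to 0.45, Hsp90b1 -0.11 to 0.29, Hspa1a -0.42 to 1.03, Hspa1b -0.96 to 0.36, Hspa5 -0.15 to 0.30, Hspa8 -0.31 to 0.40, Hsph1 -0.0404 to 0.15, Dnajb1 -0.36 to 0.25 and Hspd1 -0.15 to 0.10, so 10 of 10 members changed sign. For the interaction, leaving out each library in turn gave Hsp90aa1 -0.61 to 0.52, Hsp90ab1 -0.69 to 0.80, Hsp90b1 -0.47 to 0.44, Hspa1a -0.78 to 2.13, Hspa1b -1.57 to 1.24, Hspa5 -0.60 to 0.43, Hspa8 -0.74 to 0.67, Hsph1 -0.0872 to 0.31, Dnajb1 -0.53 to 0.76 and Hspd1 -0.17 to 0.32, so 10 of 10 members changed sign. The library set as a block gave -0.0161 for the Hsp90aa1 interaction, 0.0162 for that of Hsp90b1 and -0.0518 for Dnajb1 under BCAS averaged. For the Hsp90b1 interaction a minimum count of 30 gave 0.00457 and at least 1000 UMIs gave 0.0107. With doublets kept, Hspa1b was at 0.0153 for TBI averaged and 0.00975 for BCAS averaged, and Hspd1 at 0.0110 for BCAS averaged. The Dnajb1 interaction was -0.00450 with DESeq2, -0.00485 with RLE and -0.00904 with no filter. The cause of these changes was not tested.

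Replicate 1 deviations from the group mean correlated at 0.67 to 0.81 among control, BCAS and TBI and at -0.86 to -0.76 between each of these and BCAS+TBI. Replicate 1 is in the lower set in control, BCAS and TBI and in the higher set in BCAS+TBI. The signs thus follow the library sets, and these values cannot tell whether replicate numbers pair the samples. With the replicate number as a block, 8 members in all nuclei and 45 pairs in classes were called between the sets, beside 50.3% of all genes and 30.3% of all gene-class pairs, the Hsp90b1 interaction was 0.0585 and Hspd1 was at 0.00597 for BCAS averaged. Where leaving out a library left a group with 1, that library was assumed to vary like the other groups. Depth limits Hspa1a and Hspa1b, at 6 to 38 UMIs a library, and the mural-like class; with 2 libraries a group, the standard errors above bound what a contrast could show.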

Other observations

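Within a class, nuclei below the median UMI count of their library and class were compared with those above it, as a description added after the data were seen. Only members were compared, so the share of all genes higher in shallower nuclei is not known. The inhibitory and Slc17a6 neuron-like classes were also compared and are not given here. In oligodendrocyte-like nuclei Hsp90aa1, Hspa8 and Hsp90ab1 were each higher in the shallower nuclei of 8 of 8 libraries. Hsp90aa1 measured 295 ± 103 against 117 ± 32.0 CPM, Hspa8 115 ± 40.8 against 46.2 ± 14.7 CPM and Hsp90ab1 315 ± 126 against 172 ± 61.6 CPM (SD, n = 8). The endoplasmic reticulum members differed less there, with ratios of 1.39 for Hsp90b1 and 1.35 for Hspa5, higher in 7 of 8 libraries each. In excitatory neuron-like nuclei the same ratios were 1.26 for Hsp90aa1, 1.17 for Hspa8, 1.13 for Hsp90ab1, 1.15 for Hsp90b1 and 1.008 for Hspa5. In astrocyte-like nuclei Hsph1 went the other way, 20.9 ± 12.4 CPM in shallower and 34.5 ± 10.0 CPM in deeper nuclei (SD, n = 8), and was higher in the shallower nuclei of 1 of 8 libraries.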
